A study of Mus musculus with 8 samples.

Results

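Transmitter genes of inhibitory and excitatory interneurons are 7 genes, by mouse symbol Slc32a1, Gad1, Gad2, Slc6a5, Slc17a6, Slc17a7 and Slc17a8, chosen for what their proteins do. Earlier results of these data were known when they were chosen. All 7 were found by their Ensembl identifiers among the 38924 genes of the expression tables. Gad1 and Gad2 make the transmitter GABA from glutamate, Slc32a1 encodes the transporter that loads GABA and glycine into synaptic vesicles, and Slc6a5 encodes the transporter that brings glycine back into glycinergic axon terminals. Slc17a6, Slc17a7 and Slc17a8 encode the vesicular glutamate transporters VGLUT2, VGLUT1 and VGLUT3. In the spinal cord GABA and glycine are released by inhibitory interneurons, many of which use both, and glutamate is released by excitatory interneurons, most of which use VGLUT2. Slc17a7 is a gene of the central branches of sensory neurons and of many forebrain neurons, and Slc17a8 is found in small sets of neurons. In rodents some cholinergic interneurons of the dorsal horn also contain GABA, so that the transmitter classes are not strictly separate.

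The mice carried 1 copy of a floxed Rpl22, which encodes a large-subunit ribosomal protein and which Cre recombinase switches to a form with an HA tag. Chat-Cre drives this in cholinergic cells, in the cord motor neurons and some interneurons, and RNA bound to tagged ribosomes was precipitated from whole cord with an antibody against HA and sequenced. The 4 groups by title, with 2 animals each, were as follows: Chat-Cre with a crushed sciatic nerve (Cre crushed, animals 35 and 52, aged 18 and 9 weeks), no Cre with a crushed nerve (no-Cre crushed, animals 51 and 58, both 9 weeks), Chat-Cre without crush (Cre uncrushed, animals 10 and 3, both 8 weeks) and no Cre without crush (no-Cre uncrushed, animals 4 and 6, both 8 weeks). All animals were of strain B6.CgxB6.129, Gars +/+ and Rpl22 +/-, and the crush was on 1 side. No-Cre animals have no tagged ribosomes, so their libraries hold RNA that came down without the tag. The genotype entry goes against the title for Cre uncrushed animal 3, entered as Chat +/+, and for no-Cre uncrushed animal 4, entered as Chat +/-. Groups follow the titles here, and the changes and ratios of the transmitter genes are also given without these 2 libraries. Crush cannot be told apart from age, or from a number that all uncrushed titles share and no crushed title has.

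Totals were 9401129 to 11522721 expected counts in Cre crushed, 4826979 to 6468110 in no-Cre crushed, 8215026 to 9609300 in Cre uncrushed and 4903056 to 5203850 in no-Cre uncrushed libraries. Mitochondrial ribosomal RNA made up 1.61 to 5.53% of the counts with Cre, against 11.47 to 48.21% without. The labelled cells were present by their defining markers: Chat, which makes acetylcholine, stood at 78.17 to 126.02 CPM (counts scaled for library size) with Cre, against 3.83 to 5.16 CPM without, and the summed level of 9 motor neuron markers at 2306.8 to 2638.9 CPM, against 97 to 207.4 CPM. By these markers the 2 libraries with a contradictory entry stood with their title groups. Animal 3 had 126.02 CPM of Chat and 2638.9 CPM of motor neuron markers, and animal 4 had 4.29 and 207.4 CPM. Glial RNA was lower with Cre: the summed level of 17 markers of oligodendrocytes, astrocytes and microglia was 1215.9 to 1923.8 CPM in Cre crushed and 6746.3 to 7760.2 CPM in no-Cre crushed libraries, and 799.6 to 970.1 CPM in Cre uncrushed and 8121.3 to 8339.5 CPM in no-Cre uncrushed libraries. CPM values are shares of a library after scaling by the trimmed mean of M-values (TMM), and a lower share cannot be told apart from a smaller amount of RNA. In whole cord, fewer cells of a type and less RNA per cell cannot be told apart either.

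The stretches that lie directly before the annotated start of the gene are shown for Slc6a5 and Slc17a6, the glycinergic and the glutamatergic gene with the largest fall with Cre over all libraries among the 5 well measured genes, and for Gad1, which had the smallest. They are taken before the first start that RefSeq lists, on build GRCm38.p6, on the plus strand, at chr7:49910049-49910145 for Slc6a5, chr7:51621580-51621829 for Slc17a6 and chr2:70561879-70562041 for Gad1. Each lies upstream of the first annotated exon. Capitals mark matches to the promoter motifs TATAAA (the TATA box), GGGCGG (the GC box) and CCAAT, searched on both strands, and no matches overlap.
Slc6a5: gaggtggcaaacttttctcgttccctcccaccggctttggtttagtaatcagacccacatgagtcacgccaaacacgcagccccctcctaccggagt
Slc17a6: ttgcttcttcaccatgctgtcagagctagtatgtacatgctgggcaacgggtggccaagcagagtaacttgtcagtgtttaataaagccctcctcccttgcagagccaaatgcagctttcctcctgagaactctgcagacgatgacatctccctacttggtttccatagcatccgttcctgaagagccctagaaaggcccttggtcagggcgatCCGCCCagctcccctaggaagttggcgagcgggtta
Gad1: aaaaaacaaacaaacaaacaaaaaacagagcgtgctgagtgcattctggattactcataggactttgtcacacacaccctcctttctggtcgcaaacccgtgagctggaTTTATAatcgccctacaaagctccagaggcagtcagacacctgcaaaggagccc
The Gad1 stretch of 163 bases held 1 TATAAA match, read on the minus strand, and 46.6% of its bases were G or C. A window of that length before the start held TATAAA in 7.78% of 32851 RefSeq promoters. The Slc17a6 stretch of 250 bases had 53.2% G or C and held 1 GGGCGG match on the minus strand, a motif in 32.7% of windows of that length. The Slc6a5 stretch of 97 bases, with 55.7% G or C, held none of the 3, which stood in 5.09% (TATAAA), 10.2% (GGGCGG) and 13.2% (CCAAT) of windows of 97 bases.

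The genes differed widely in level. Levels that allow for gene length were the CPM divided by the effective length in kilobases (CPM per kb). Slc6a5 was the highest of the 7 in all 8 libraries, with 15.7 ± 4.81 CPM per kb in Cre crushed, 43.0 ± 9.69 in no-Cre crushed, 12.8 ± 1.77 in Cre uncrushed and 56.5 ± 1.77 in no-Cre uncrushed libraries (SD, n = 2 animals in each group here and below). Slc17a6 stood second in all 4 no-Cre libraries, with 21.1 ± 4.24 CPM per kb in no-Cre crushed and 22.3 ± 0.849 in no-Cre uncrushed mice. With Cre it was at 6.76 ± 0.467 and 9.24 ± 3.48 CPM per kb in crushed and uncrushed mice, below Gad1 and Gad2 in both crushed libraries. Gad1 was at 9.57 ± 2.86 CPM per kb in Cre crushed, 12.2 ± 0.424 in no-Cre crushed, 9.69 ± 0.0424 in Cre uncrushed and 16.9 ± 5.73 in no-Cre uncrushed libraries. The last spread comes in part from the effective length of Gad1, 3.04 kb in animal 4 and 2.22 kb in animal 6. Their 38.99 and 46.47 CPM became 12.8 and 20.9 CPM per kb. Gad2 was at 8.97 ± 2.16, 12.8 ± 1.7, 4.83 ± 0.516 and 11.3 ± 3.56 CPM per kb in the same order of groups. Slc32a1 was the fifth in all 8 libraries, at 3.64 ± 0.608, 7.83 ± 0.219, 2.78 ± 0.156 and 7.8 ± 4.95 CPM per kb.

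Some neighbours in this order lay within each other's spread, taken as mean ± 1 SD. In Cre crushed mice that held for Slc6a5 and Gad1, for Gad1 and Gad2, and for Gad2 and Slc17a6. In no-Cre crushed mice it held for Gad2 and Gad1. In Cre uncrushed mice Gad1 and Slc17a6 overlapped, and in no-Cre uncrushed mice Slc17a6 and Gad1, Gad1 and Gad2, and Gad2 and Slc32a1. Slc17a7 and Slc17a8 overlapped in all 4 groups. Both had the lowest means, at 0.0915 and 0.0901 CPM per kb in Cre crushed, 0.467 and 0.35 in no-Cre crushed, 0.041 and 0.141 in Cre uncrushed and 0.597 and 1.86 in no-Cre uncrushed libraries. All 7 genes passed the filter on low counts, Slc17a7 and Slc17a8 through the no-Cre libraries alone, so that their calls are not independent of the filter. In no-Cre uncrushed mice Slc17a8, at 1.86 ± 1.96 CPM per kb, overlapped Slc32a1.

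**Figure D1:**
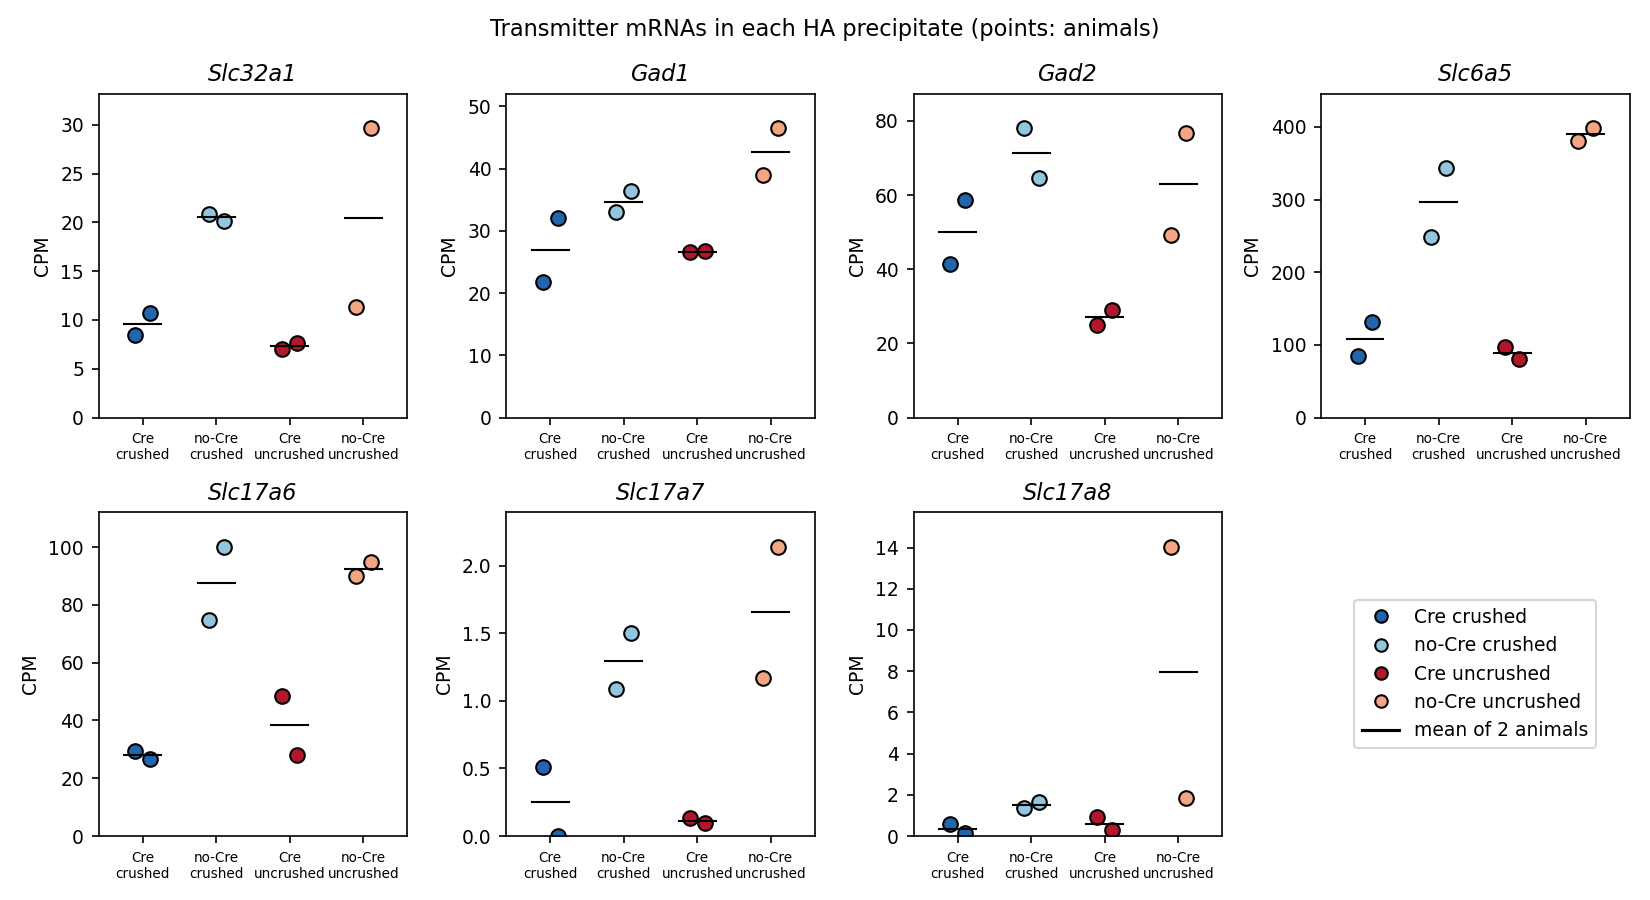
Level of each of the 7 genes (CPM, linear scale from 0, a different range in each panel) in the 8 libraries, 1 point per animal and a bar at the mean of the 2 animals, with a panel for each gene and each Cre group left of its no-Cre group. For Slc6a5 every Cre library lies at or below 131.65 CPM and every no-Cre library at or above 248.76 CPM, while for Gad1 the Cre crushed library of animal 52 at 32.04 CPM comes close to the no-Cre crushed ones.

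Cre against no-Cre asked which RNAs come down with the tag above the level seen without it. Slc17a7 and Slc17a8, which passed the filter only where they were high, are left out of the counts in this paragraph. The other 5 transmitter genes were lower in Cre than in no-Cre libraries by their fitted change, both in crushed and in uncrushed mice. The median of all genes tested lay just below 0, so that lower genes were at least as common as higher ones. At an adjusted p under 0.05, 3 of the other 5 were called lower in crushed mice, where 21.3% of the 15208 genes tested were called lower and 42.9% were called in either direction. In uncrushed mice 4 of the 5 were called lower, where 21.9% of genes were called lower and 42.5% in either direction. Over all libraries, fitted with a term for crush, all 5 were called lower, against 31.2% of genes called lower and 59.9% in either direction. The median log2 fold change of the 5 genes was -1.11 in crushed and -1.28 in uncrushed mice, beside -0.08 and -0.03 for all genes tested. Grouping the libraries by the genotype entry in place of the title gave 0 called genes in each of these 3 comparisons. That grouping goes against the Chat levels of animals 3 and 4. With library size as the only scaling, the median of all genes over all libraries was 0.33, against -0.07 with TMM, and raised the share of calls that were higher to 63.6%, against 47.9%. The fitted change of each of the 5 genes stayed below 0 in the 3 comparisons under that scaling, but for Gad1 in uncrushed mice it was all but gone (-0.01, adjusted p = 0.985). Under it 6 calls were lost. These were Gad2 (log2 -0.57), Slc32a1 (-0.89) and Slc17a6 (-0.62) in uncrushed mice, Slc32a1 in crushed mice (-0.97), and Gad1 (-0.11) and Gad2 (-0.49) over all libraries. Without both libraries with a contradictory entry the log2 changes in uncrushed mice were -1.99 for Slc6a5, -2.03 for Slc32a1 and -1.57 for Gad2, which kept their calls. They were -0.93 for Slc17a6 and -0.98 for Slc17a8, whose calls were lost, and -0.76 for Gad1 and -3.86 for Slc17a7, which were not called with them either. Over all libraries the calls of Gad1 (-0.46), Slc17a7 (-2.6) and Slc17a8 (-1.62) were then lost, and Slc6a5 (-1.6), Slc17a6 (-1.37), Slc32a1 (-1.36) and Gad2 (-0.82) kept theirs. With age as a covariate Slc32a1 in crushed mice (-0.94) and Gad1 over all libraries (-0.44) were no longer called, and with no filter on low counts Gad1 over all libraries (-0.41) was not. Age differed within a group only between Cre crushed animals 35 and 52, so that the covariate cannot separate age from animal 35.

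Slc6a5 (ENSMUSG00000039728), the glycine transporter of axon terminals, had 84.43 and 131.65 CPM in Cre crushed mice, against 248.76 and 343.51 CPM in no-Cre crushed mice. In uncrushed mice it had 97.44 and 80.15 CPM with Cre, against 381.34 and 398.24 CPM without. The groups did not overlap, and every Cre library lay below every no-Cre library. It was 2.74-fold lower with Cre in crushed mice (log2 fold change -1.45 ± 0.28 SE, edgeR adjusted p = 0.00209) and 4.39-fold lower in uncrushed mice (-2.13 ± 0.28, adjusted p = 0.00028). Over all libraries it was 3.47-fold lower (-1.79 ± 0.22, adjusted p = 1.87e-05). Of the 7 genes it had the smallest p over all libraries, and it kept its call in all 3 comparisons when any 1 library was left out, with adjusted p of at most 0.0493 in crushed and 0.00796 in uncrushed mice.

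Slc32a1 (ENSMUSG00000037771), the vesicular transporter shared by GABA and glycine neurons, had 8.42 and 10.68 CPM in Cre crushed mice, against 20.9 and 20.16 CPM in no-Cre crushed mice. It had 7.03 and 7.6 CPM in Cre uncrushed mice, against 11.31 and 29.65 CPM in no-Cre uncrushed mice. The lowest no-Cre library, animal 4, was just above the highest Cre library. The gene was 2.15-fold lower with Cre in crushed mice (log2 -1.11 ± 0.39, adjusted p = 0.0393) and 2.84-fold lower in uncrushed mice (-1.51 ± 0.41, adjusted p = 0.0128). The call in crushed mice was lost without animal 35, 52, 51, 58, 10 or 3 (adjusted p = 0.0661 to 0.254 over these 6; 0.00727 to 0.307 over all alternatives) and that in uncrushed mice without animal 10, 3 or 6. Without no-Cre animal 6, the highest library, the log2 change in uncrushed mice was -0.56 (adjusted p = 0.248; 0.00182 to 1 over all alternatives). Over all libraries it was 2.45-fold lower (-1.3 ± 0.28, adjusted p = 0.00146), and this call held without any 1 library. An unnamed gene model annotated on the opposite strand overlaps its exons and had 0 counts in every library.

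The 2 enzymes that make GABA had the smallest changes over all libraries. Gad2 (ENSMUSG00000026787), which encodes GAD65, the form enriched at nerve terminals, had 41.39 and 58.62 CPM in Cre crushed mice, against 78.03 and 64.64 CPM in no-Cre crushed mice. It had 24.98 and 29.02 CPM in Cre uncrushed mice, against 49.13 and 76.66 CPM in no-Cre uncrushed mice. Within each crush state the groups did not overlap, but Cre crushed animal 52 lay above no-Cre uncrushed animal 4. Gad2 was 2.34-fold lower with Cre in uncrushed mice (log2 -1.22 ± 0.28, adjusted p = 0.00555), and its change in crushed mice was -0.51 ± 0.27 (adjusted p = 0.144), which did not pass. The call in uncrushed mice was lost without animal 10 (-1.08, adjusted p = 0.061) or animal 6 (-0.8, adjusted p = 0.063), in a range of 0.000462 to 1 over all alternatives. Over all libraries Gad2 was 1.81-fold lower (-0.86 ± 0.21, adjusted p = 0.00392).

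Gad1 (ENSMUSG00000070880), which encodes GAD67, the form that makes most GABA in the cell body and axon, had 21.77 and 32.04 CPM in Cre crushed mice, against 32.98 and 36.32 CPM in no-Cre crushed mice. It had 26.54 and 26.78 CPM in Cre uncrushed mice, against 38.99 and 46.47 CPM in no-Cre uncrushed mice. Every Cre library lay below every no-Cre library, by as little as 32.04 against 32.98 CPM. Its change passed in neither state, at log2 -0.37 ± 0.25 in crushed (adjusted p = 0.26) and -0.68 ± 0.26 in uncrushed mice (adjusted p = 0.0531). In uncrushed mice it did pass in edgeR with DESeq2 size factors (-0.71, adjusted p = 0.0448) and with the compared groups alone (-0.78, adjusted p = 0.0365). Over all libraries it was called 1.43-fold lower (-0.52 ± 0.18, adjusted p = 0.026). That call was lost without animal 35, 58, 10, 3 or 6, of which animal 35 gave the highest adjusted p of 0.13 (0.0151 to 0.759 over all alternatives). The pseudogene Gad1-ps had 0 to 12 counts in a library, and the sources used here do not give how reads were split between it and Gad1.

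Slc17a6 (ENSMUSG00000030500), the vesicular transporter VGLUT2 of most excitatory spinal interneurons, had 29.37 and 26.66 CPM in Cre crushed mice, against 74.91 and 100.12 CPM in no-Cre crushed mice. It had 48.4 and 28.15 CPM in Cre uncrushed mice, against 90.07 and 94.82 CPM in no-Cre uncrushed mice. The groups did not overlap, and Cre uncrushed animal 10 was the highest of the Cre libraries. Slc17a6 was 3.12-fold lower with Cre in crushed mice (log2 -1.64 ± 0.28, adjusted p = 0.00108), 2.42-fold lower in uncrushed mice (-1.28 ± 0.28, adjusted p = 0.00428) and 2.75-fold lower over all libraries (-1.46 ± 0.2, adjusted p = 4.57e-05). The call in uncrushed mice was lost without animal 3 (-0.9, adjusted p = 0.0665) and without both libraries with a contradictory entry (-0.93, adjusted p = 0.0932), in a range of 0.000242 to 1 over all alternatives.

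The other vesicular glutamate transporters were at the edge of detection. Slc17a7 (ENSMUSG00000070570), VGLUT1, had 8 and 0 counts in Cre crushed mice, against 8 and 9 counts in no-Cre crushed mice, and 1 count in each Cre uncrushed mouse, against 3 and 8 counts in no-Cre uncrushed mice. The 0 counts of animal 52 allow a level of up to 0.24 CPM, the value of 3 counts in that library. Scaled for depth, the counts with Cre over all libraries, 10 against 28, came to a ratio of 0.151 (exact Clopper-Pearson 95% interval 0.0657 to 0.321, counting error only). In crushed mice the ratio was 0.221 (0.0826 to 0.541) on 8 against 17 counts, and in uncrushed mice 0.0639 (0.00688 to 0.293) on 2 against 11 counts. edgeR gave adjusted p of 0.148 in crushed and 0.0551 in uncrushed mice, which did not pass, and 0.0159 over all libraries. With age as a covariate the change in uncrushed mice was called (adjusted p = 0.0449). The call over all libraries was lost without animal 52, 58, 10, 3 or 6, with adjusted p of 0.0555 to 0.0664 (0.00557 to 0.702 over all alternatives).

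Slc17a8 (ENSMUSG00000019935), VGLUT3, had 9 and 2 counts in Cre crushed mice, against 10 and 10 counts in no-Cre crushed mice. It had 7 and 3 counts in Cre uncrushed mice, against 36 and 7 counts in no-Cre uncrushed mice. The 36 counts of no-Cre animal 4, or 14.04 CPM, stood far above the 7 counts, or 1.87 CPM, of no-Cre animal 6. The ratio of depth-scaled counts was 0.259 (exact interval 0.112 to 0.566) in crushed and 0.0817 (0.0366 to 0.165) in uncrushed mice. The call in uncrushed mice (adjusted p = 0.0175) and that over all libraries (adjusted p = 0.00644) were both lost without animal 4, at log2 -1.62 (adjusted p = 0.341; 0.000555 to 1 over all alternatives) and -1.81 (adjusted p = 0.0696; 8.83e-05 to 0.91). The call in uncrushed mice was also lost without animal 3 (-3.04, adjusted p = 0.118). The change in crushed mice did not pass (adjusted p = 0.155).

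**Figure D2:**
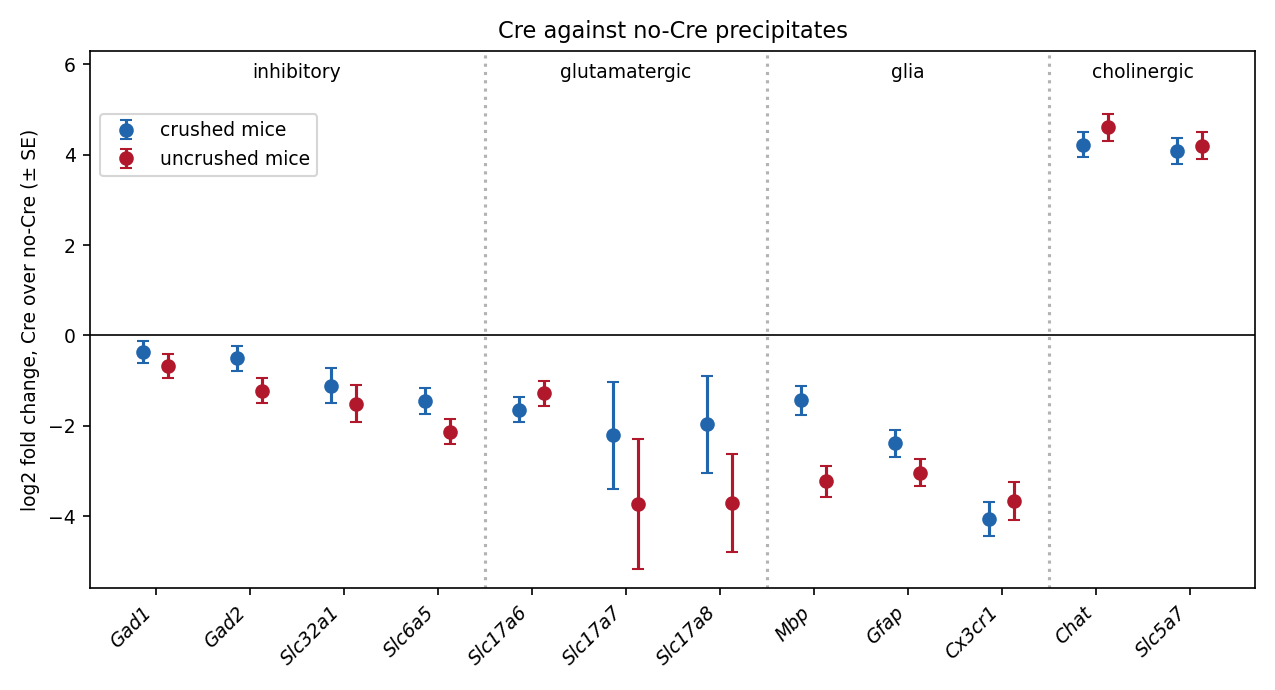
Log2 fold change of Cre against no-Cre in crushed and uncrushed mice for the 7 transmitter genes, 3 glial markers and 2 cholinergic markers, with bars of 1 standard error from edgeR and a line at 0. All points of the transmitter genes lie below 0, with Slc6a5 at -1.45 and -2.13 and Gad1 at -0.37 and -0.68. The bars of Slc17a7 and Slc17a8, which had few counts and passed the filter through the no-Cre libraries alone, are the widest.

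Glial RNA moved in the same direction, further at the median. Over all libraries all 17 glial markers were called lower with Cre, where 31.2% of all genes tested were. Their median log2 fold change was -2.83, against a median of -1.3 for the 5 well measured transmitter genes and -0.07 for all genes tested. In crushed mice 16 of the 17 were called lower (median -2.51), and in uncrushed mice all 17 (median -3.23, from -4.2 to -2.47). Of all genes tested, 21.3% were called lower in crushed and 21.9% in uncrushed mice. None of the 5 transmitter genes reached -2.47 in uncrushed mice. In crushed mice the glial changes ranged between -4.06 and -1.43, and Slc17a6 at -1.64 and Slc6a5 at -1.45 lay inside that range. Set against the summed counts of the 17 glial markers in the same library, these 5 genes were higher with Cre. Glial CPM fell with Cre, so that a gene with an unchanged CPM also stands higher on this scale. The 5 genes themselves fell in CPM, and being higher here is no enrichment with the tag. Gad1 had 17.91 and 16.66 counts per 1000 glial counts in Cre crushed mice, against 4.888 and 4.68 in no-Cre crushed mice, and 27.36 and 33.5 in Cre uncrushed mice, against 4.801 and 5.573 in no-Cre uncrushed mice. Slc6a5 had 69.44 and 68.43 per 1000 in Cre crushed mice, against 36.87 and 44.27 in no-Cre crushed mice, and 100.4 and 100.2 in Cre uncrushed mice, against 46.96 and 47.75 in no-Cre uncrushed mice. The Cre and no-Cre libraries overlapped for none of the 5 on this scale. The glial sums did not overlap either, so a gene with an unchanged CPM would separate in the same way. The lack of overlap is thus no trait of these genes, and how many of all genes do the same was not computed.

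The size of that difference varied among the 5 genes. The ratio of geometric means over all libraries, Cre over no-Cre, was 4.6 for Gad1, 3.67 for Gad2, 2.85 for Slc32a1, 2.39 for Slc17a6 and 1.9 for Slc6a5. All 5 share the same glial sum, so this order repeats that of their log2 changes in CPM, from -0.52 for Gad1 to -1.79 for Slc6a5. Without both libraries with a contradictory entry the ratio was 4.0, 3.11, 2.13, 2.17 and 1.83 for Gad1, Gad2, Slc32a1, Slc17a6 and Slc6a5, still without overlap. In crushed mice Slc17a6 had the smallest ratio, 1.53, with 24.15 and 13.86 counts per 1000 glial counts in Cre crushed mice, against 11.1 and 12.9 in no-Cre crushed mice. In uncrushed mice its ratio was 3.73, the same as that of Slc32a1. These ratios are descriptions with no test, and the part of glial RNA in the lower CPM values was not tested. Slc17a7 and Slc17a8 overlapped between Cre and no-Cre libraries on this scale.

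**Figure D3:**
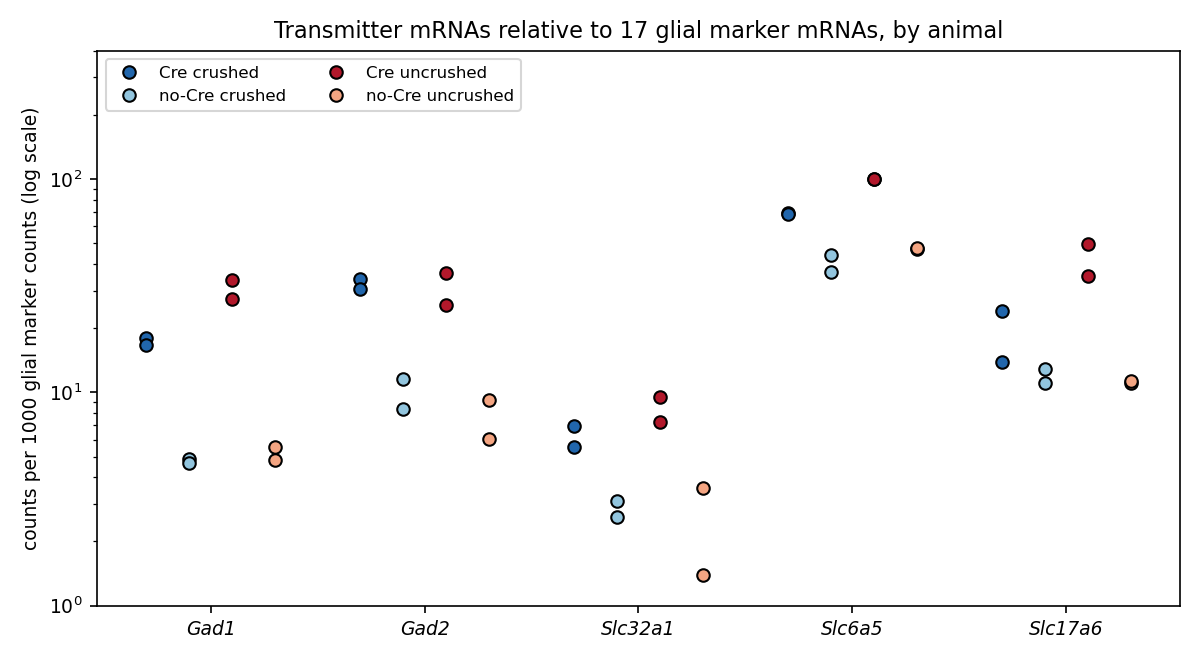
Counts of the 5 well measured transmitter genes per 1000 counts of 17 glial marker genes (log scale), 1 point per library, with Cre groups beside their no-Cre groups. For Gad1 the Cre libraries lie at 16.66 to 33.5 and the no-Cre libraries at 4.68 to 5.573, the widest gap, and for Slc17a6 Cre crushed animal 52 at 13.86 lies just above no-Cre crushed animal 58 at 12.9.

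Ratios between the transmitter genes within a library do not depend on depth or scaling. Gad1 stood at 25.79 and 24.34 counts per 100 of Slc6a5 in Cre crushed mice, against 13.26 and 10.57 in no-Cre crushed mice. In uncrushed mice it stood at 27.24 and 33.41 with Cre, against 10.22 and 11.67 without. The ratio was thus higher in every Cre library, by 1.27 on the log2 scale or 2.42-fold (SD of the log2 ratio 0.2 with Cre and 0.17 without, n = 4 libraries each, exact two-sided permutation p = 0.0286). Gad1 also stood higher against Slc17a6, at 74.14 and 120.2 per 100 in Cre crushed mice, against 44.02 and 36.27 in no-Cre crushed mice, and at 54.84 and 95.16 in Cre uncrushed mice, against 43.29 and 49.01 in no-Cre uncrushed mice. This ratio was 1.92-fold higher with Cre, again with no overlap (exact two-sided permutation p = 0.0286). The value of 0.0286 is the smallest p that 4 against 4 libraries allow. The permutation moved the Cre labels freely over all 8 libraries and did not keep crushed and uncrushed libraries apart. These p-values, here and for the other pairs, thus do not allow for crush, and a permutation within each crush state was not run. Without both libraries with a contradictory entry the log2 differences were 1.13 against Slc6a5 and 0.88 against Slc17a6. Adjusted over the 10 pairs among 5 genes both p-values came to 0.143, so neither passed (exact permutation test, Benjamini-Hochberg). With that floor a pass would need most of the 10 pairs to reach 0.0286, so the adjusted result says little about either ratio.

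The other 8 pairs overlapped between Cre and no-Cre libraries. Gad2 against Slc6a5 was 1.93-fold higher with Cre, at 49.03 and 44.53 per 100 in Cre crushed mice, against 31.37 and 18.82 in no-Cre crushed mice, and at 25.63 and 36.21 in Cre uncrushed mice, against 12.88 and 19.25 in no-Cre uncrushed mice (exact permutation p = 0.0571, adjusted 0.19). Slc17a6 against Slc6a5, the glutamatergic over the glycinergic gene, was 1.26-fold higher with Cre and Slc32a1 against Slc17a6 1.2-fold higher (exact permutation p = 0.314 and 0.571).

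Crush against no crush asked how the same RNAs changed after nerve injury. None of the 7 transmitter genes was called with Cre, where 0.0723% of the 15208 genes were called, or 11 genes. None was called without Cre either, where the share was also 0.0723%. In the test of the difference between the 2 crush effects 0 genes were called, or 0.0%, with 905 at an unadjusted p under 0.05 and 15 called by DESeq2. No transmitter gene was at an unadjusted p under 0.05 in that test, and none was called by DESeq2 in the 3 comparisons.

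Gad2 showed the smallest p among the 7 genes with Cre. It had 41.39 and 58.62 CPM in Cre crushed mice, against 24.98 and 29.02 CPM in Cre uncrushed mice, without overlap. The log2 fold change was 0.89 ± 0.28, with an unadjusted edgeR p of 0.00781 and an adjusted p of 0.327, which did not pass. Without Cre it had 78.03 and 64.64 CPM in crushed mice, against 49.13 and 76.66 CPM in uncrushed mice, with a change of 0.18 ± 0.28 (adjusted p = 0.814). The difference of the 2 changes was 0.71 ± 0.39 (adjusted p = 0.874). Beside it, the 17 glial markers had a median change with crush of 0.91 in Cre libraries, ranging between 0.27 and 1.71, with 0 called. Their summed level was 1215.9 to 1923.8 CPM in Cre crushed mice, against 799.6 to 970.1 CPM in Cre uncrushed mice, and their part in the Gad2 values was not tested.

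For the other inhibitory genes no change with crush passed either. Gad1 had a change of 0.01 ± 0.25 with Cre (adjusted p = 0.994) and -0.31 ± 0.26 without (adjusted p = 0.636). Slc32a1 had 0.38 ± 0.4 with Cre (adjusted p = 0.848) and -0.02 ± 0.39 without (adjusted p = 0.989). Slc6a5 had 0.28 ± 0.27 with Cre (adjusted p = 0.829) and -0.4 ± 0.27 without (adjusted p = 0.56). For the excitatory gene Slc17a6 the change was -0.45 ± 0.28 with Cre (adjusted p = 0.693) and -0.08 ± 0.27 without (adjusted p = 0.924). The differences between the changes with and without Cre lay between -0.37 ± 0.39 for Slc17a6 and 0.71 ± 0.39 for Gad2. No fold change is given for Slc17a7 and Slc17a8, whose crushed and uncrushed counts with Cre were 8 and 0 against 1 and 1, and 9 and 2 against 7 and 3. With library size as the only scaling, the median of all genes without Cre was 0.94, against -0.03 with TMM, which turned the changes of Slc32a1, Gad1, Slc6a5 and Slc17a6 without Cre to 0.53 to 0.89.

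The 2 GABA-making enzymes were also set against each other within each library. Gad1 stood at 52.6 and 54.66 counts per 100 of Gad2 in Cre crushed mice, against 106.2 and 92.28 in Cre uncrushed mice. It stood at 42.26 and 56.19 in no-Cre crushed mice, against 79.37 and 60.63 in no-Cre uncrushed mice. All 4 crushed libraries lay below all 4 uncrushed ones. This pattern was noticed after the values were seen and was not tested, and age and the number in the uncrushed titles differ with it.

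**Figure D4:**
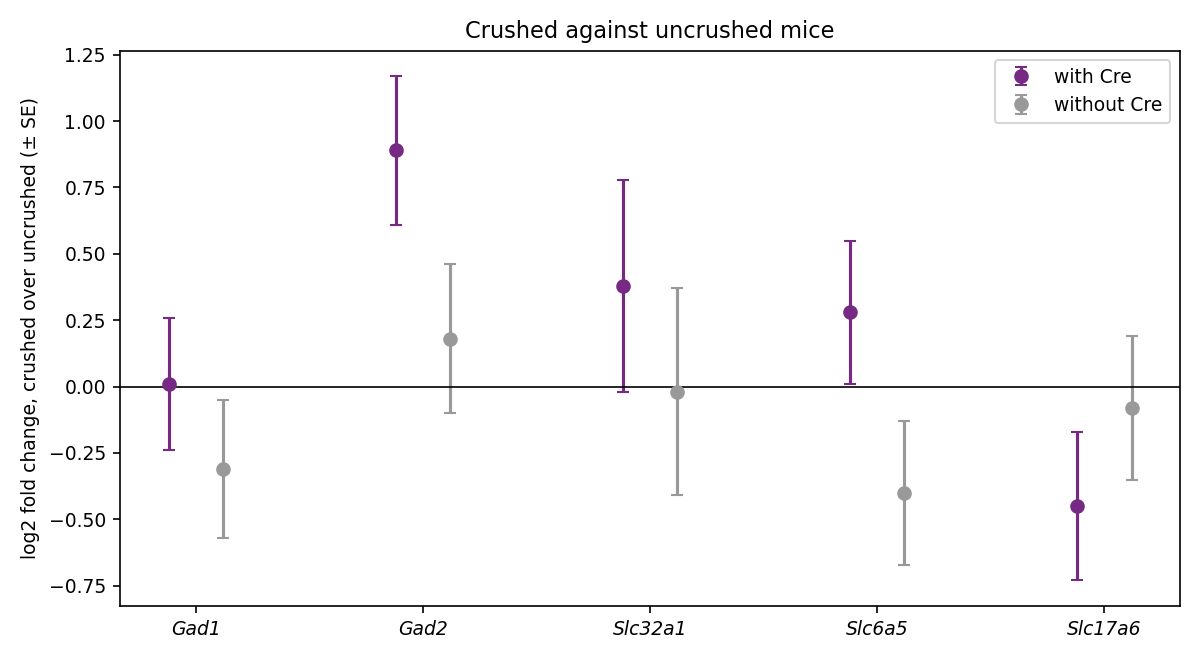
Log2 fold change of crushed against uncrushed mice for the 5 well measured genes, with and without Cre, with bars of 1 standard error from edgeR and a line at 0. Gad2 with Cre, at 0.89 ± 0.28, lies furthest from 0, and no change passed the adjusted threshold.

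Genes that handle the same transmitters outside the synaptic vesicle changed in both directions. Of 22 such genes 21 were tested, and over all libraries 5 were called higher and 8 lower with Cre (median log2 -0.41, against -0.07 for all genes). These are 23.8% and 38.1% of the list, near the 28.7% and 31.2% of all genes tested. In crushed mice 4 were higher and 7 lower (median -0.53), and in uncrushed mice 5 were higher and 7 lower (median -0.28). Of all genes, 21.6% were called higher and 21.3% lower in crushed mice, and 20.6% and 21.9% in uncrushed mice. Transporters that take up GABA and glycine were among the lower ones. Slc6a11, the GABA transporter GAT3 of astrocytes, had 37.66 and 46.99 CPM in Cre crushed mice, against 151.05 and 282.21 CPM in no-Cre crushed mice, and 25.37 and 29.7 CPM in Cre uncrushed mice, against 232.78 and 288.73 CPM in no-Cre uncrushed mice. Its log2 fold change over all libraries was -2.79 ± 0.25 (adjusted p = 2.35e-06), close to the glial median of -2.83. Slc6a9, the glycine transporter GlyT1 of astrocytes, changed by -2.21 ± 0.29 (adjusted p = 3.8e-05).

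Enzymes of glutamate and glycine metabolism went the other way. Got1, the cytosolic aspartate aminotransferase, had 365.4 and 347.23 CPM in Cre crushed mice, against 89.3 and 113.95 CPM in no-Cre crushed mice, and 368.05 and 367.74 CPM in Cre uncrushed mice, against 140.37 and 171.47 CPM in no-Cre uncrushed mice. On the log2 scale Got1 rose by 1.52 ± 0.18 (adjusted p = 1.89e-05) and Got2, the mitochondrial form, by 1.52 ± 0.21 (adjusted p = 5.06e-05). Gcsh, a protein of the mitochondrial glycine cleavage system, was higher by 1.45 ± 0.19. Slc1a1, the neuronal glutamate transporter EAAC1, was higher by 1.17 ± 0.19, and Gls2, a glutaminase, by 0.96 ± 0.38 (adjusted p = 0.0426). Other lower genes were Slc38a5, Slc38a3, Glul, Abat and Slc6a13, at -3.63 to -1.01. Of these Glul makes glutamine in astrocytes, Slc38a3 and Slc38a5 carry it across the membrane and Abat breaks down GABA.

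Other genes of vesicular transport and packaging went both ways. Of 7 listed, 5 were tested, and Slc18a3 was not matched. Over all libraries 3 were called higher and 1 lower with Cre. These are 60% and 20% of those tested, against 28.7% and 31.2% of all genes. Slc10a4, 1 of the 3, is also among the 9 motor neuron markers. Over all libraries Slc10a4, a vesicular protein of cholinergic neurons, rose by 4.72 ± 0.24 on the log2 scale with Cre, and the synaptic vesicle proteins Sv2b and Sv2c by 2.23 ± 0.17 and 1.28 ± 0.17. Sv2a, the form found in most neurons, fell by 0.65 on the log2 scale (SE 0.17, adjusted p = 0.00507). Slc18a2, the vesicular monoamine transporter, had a change of 0.23 that did not pass.

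Marker genes of interneuron classes did not all follow the transmitter genes. Of 19 markers of inhibitory interneurons 17 were tested, and over all libraries 9 were called lower and 2 higher with Cre (median -1.27), or 52.9% and 11.8% of the list, against 31.2% and 28.7% of all genes. Their summed level was 174.8 to 179.4 CPM in Cre crushed, against 238.7 to 278.4 CPM in no-Cre crushed mice, and 141.9 to 173.5 CPM in Cre uncrushed, against 254.3 to 298.7 CPM in no-Cre uncrushed mice. Reln, a secreted protein of dorsal horn neurons, had 18.36 and 23.58 CPM in Cre crushed mice, against 81.43 and 66.97 CPM in no-Cre crushed mice, and 18.34 and 13.73 CPM in Cre uncrushed mice, against 48.74 and 49.68 CPM in no-Cre uncrushed mice. It fell by 1.73 on the log2 scale over all libraries (SE 0.18, adjusted p = 5.82e-06). Rorb, a nuclear receptor of dorsal inhibitory interneurons, fell by 1.5 (SE 0.17, adjusted p = 1.32e-05), and Calb1, Gata2, Pvalb, Foxp2, Tfap2b, Lhx1 and Pdyn by log2 changes of -2.91 to -1.02. The 2 higher ones were Nos1, neuronal nitric oxide synthase, at 1.09 ± 0.22 (adjusted p = 0.00109), and Gal, the peptide galanin, at 1.8 ± 0.62 (adjusted p = 0.0232). For Gal the change was 2.9 ± 0.56 in crushed mice (adjusted p = 0.00217) and -0.17 ± 0.69 in uncrushed mice (adjusted p = 0.858), and the difference between them did not pass (adjusted p = 0.816).

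The excitatory interneuron markers split. Of 20 listed 15 were tested, and over all libraries 8 were lower and 5 higher with Cre (median -1.15). These are 53.3% and 33.3% of those tested, against 31.2% and 28.7% of all genes, so that the higher share was near that of all genes. Among the lower ones were Tac1, which encodes the substance P precursor (-2.93 ± 0.42, adjusted p = 6.75e-05), Lmx1b, a transcription factor of dorsal excitatory neurons (-2.3 ± 0.47), and Tac2, Pou4f1, Ebf2, Lbx1 and Shox2, at -2.39 to -1.15. Nts, the peptide neurotensin, went against them with 41.96 and 36.16 CPM in Cre crushed mice, against 3.66 and 4.33 CPM in no-Cre crushed mice, and 45.79 and 42.75 CPM in Cre uncrushed mice, against 7.02 and 4.27 CPM in no-Cre uncrushed mice. Its log2 fold change was 3.16 ± 0.22 (adjusted p = 5.79e-07). Tacr1, the substance P receptor, rose by 2.21 ± 0.21, Calb2, the calcium-binding protein calretinin, by 1.92 ± 0.22, Cck, the peptide cholecystokinin, by 1.96 ± 0.26 and Maf, a transcription factor, by 0.68 ± 0.25. For Maf the change was 0.05 ± 0.23 in crushed mice (adjusted p = 0.879) and 1.36 ± 0.24 in uncrushed mice (adjusted p = 0.00122), and the difference between them did not pass (adjusted p = 0.806). The summed level of the list was higher with Cre, at 242.2 to 262.7 CPM in Cre crushed, against 123.5 to 187.2 CPM in no-Cre crushed mice, and 370.1 to 401.2 CPM in Cre uncrushed, against 181.6 to 194.6 CPM in no-Cre uncrushed mice, while its median change was -1.15.

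**Figure D5:**
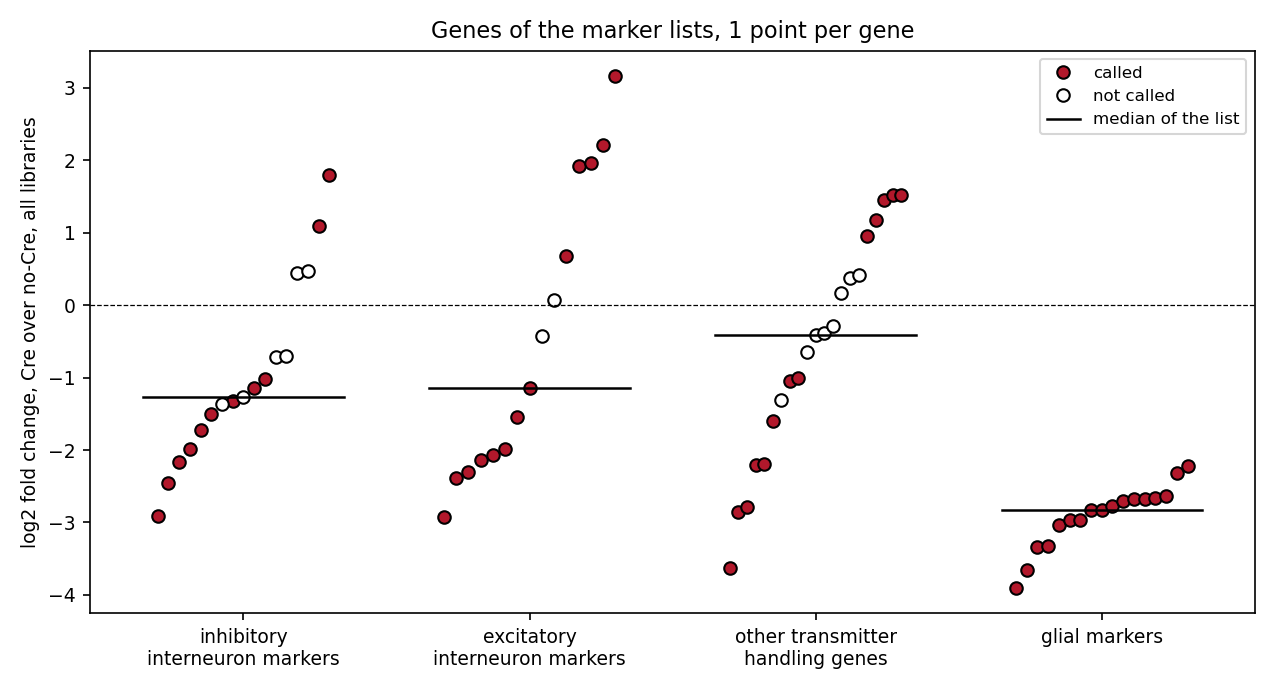
Log2 fold change of Cre against no-Cre over all libraries for each tested gene of 4 lists, 1 point per gene, filled where called, with a bar at the median of each list. The glial markers lie around -2.83, all below 0, while the excitatory interneuron list spreads between Tac1 at -2.93 and Nts at 3.16 and the list of transmitter handling genes between -3.63 and 1.52.

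Of 8 markers of sensory ganglion neurons 4 were tested, and Calca and Isl2, which motor neurons also express, were called higher (4.14 ± 0.33 and 3.46 ± 0.44). These are 50% of those tested, against 28.7% of all genes over all libraries. Scn10a, a sodium channel of sensory neurons, varied within groups, with 91 and 1 counts in Cre crushed, 1 and 70 counts in no-Cre crushed, 15 and 2 counts in Cre uncrushed and 20 and 45 counts in no-Cre uncrushed mice. With crush in Cre libraries, Npy, the peptide neuropeptide Y of some inhibitory interneurons, was the single gene of the interneuron and transmitter handling lists that was called. It had 15.7 and 7.6 CPM in Cre crushed mice, against 0.39 CPM in each Cre uncrushed mouse (log2 4.85 ± 0.66, adjusted p = 0.0213), and 0.95 and 2.17 CPM in no-Cre crushed mice, against 4.29 and 3.47 CPM in no-Cre uncrushed mice (-1.32 ± 0.63, adjusted p = 0.406). The difference of the 2 changes did not pass (6.17 ± 0.91, adjusted p = 0.386). Cre against no-Cre, Npy was higher in crushed mice (2.92 ± 0.57, adjusted p = 0.00235) and lower in uncrushed mice (-3.25 ± 0.71, adjusted p = 0.00423). Which cells this Npy RNA came from was not tested, so that its rise cannot be assigned to interneurons.

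The genes whose pattern over the 8 libraries was most like that of each transmitter gene were not other transmitter genes. Likeness was the root mean square difference of log2 CPM, each gene centred on its own mean, among 9664 genes with a mean of at least 5 CPM. Slc6a5 was closest to March8 (0.13), Tspan2 (0.14) and Trp53bp2 (0.17), and Slc17a6 to Ss18 (0.15), Pou3f3 (0.16) and Elmsan1 (0.19). Slc32a1 was closest to Stk10 (0.15), Sema4b (0.16) and Palm2 (0.16), Gad2 to Arhgap21 (0.16), Pold3 (0.19) and Mum1 (0.19), and Gad1 to Slc3a2 (0.11), Efr3a (0.11) and Usp11 (0.12). Among the transmitter genes the closest pair was Gad2 and Slc32a1, at 0.32, where Gad2 was number 113 in the order of likeness to Slc32a1. Slc17a6 and Slc6a5 came next at 0.38, Gad1 and Gad2 differed by 0.42, and Gad1 and Slc6a5 by 0.66, tied with Gad2 and Slc17a6 as the least alike.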

How the data were processed

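RNA precipitated with HA-tagged ribosomes was sequenced from 8 mouse spinal cords. Per the submitters' processing notes, the authors used Bowtie2 2.2.0 and RSEM 1.2.12. Genome build, annotation and strand setting: not given in the sources used here. The deposited expected counts are estimated reads per gene, not scaled, and were made whole by rounding. The deposited effective lengths, in bases and of the type other, were used only for levels per kb. Symbols were found for 37607 of the 38924 identifiers (96.6%). The sequences are from a RefSeq table on GRCm38.p6.

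The test was edgeR's quasi-likelihood test (edgeR 4.0.16, R 4.3.3) on TMM-scaled libraries. The filter filterByExpr, at a minimum count of 10 and a minimum total of 15, retained 15208 genes. A model with 4 group means used all 8 libraries and left 4 residual degrees of freedom. Tests were two-sided, with Benjamini-Hochberg adjustment over all genes and a threshold of 0.05. Values after ± are standard errors for log2 fold changes (the change over the square root of F) and standard deviations for levels. Floors are 3 counts, or 0.19 to 1.17 CPM depending on the library, and floors and intervals cover counting error only. Log2 CPM for likeness used a prior count of 2. The labels name separate animals. Alternatives covered the tool (DESeq2 1.42.0), the scaling (DESeq2 size factors, library size), the filter (none), the samples (the compared groups alone, without both contradictory libraries, without each library), the grouping (genotype entry) and an age covariate. Leaving libraries out of the ratios between genes and to glial markers was added after their values were seen. The fit was tested on simulated data. The transmitter genes, lists and tests were chosen with earlier results of these data known. All 7 genes are named in every comparison, with the 3 genes most like each at a mean of at least 5 CPM, and from each list up to 6 called genes with the smallest p and those against its direction. Scn10a, Calca, Isl2 and the vesicle genes were named after their values were seen. Some list genes are not reported here.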

Additional observations from a re-analysis of the deposited data

How the results depend on the processing

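No paired analysis was possible because the groups share no animal number. The number of called genes moved as follows, with counts of transmitter genes over all 7. These include Slc17a7 and Slc17a8, which passed the filter through the no-Cre libraries alone. Grouping by the genotype entry gave 0 called genes and 0 called transmitter genes in every comparison of Cre with no-Cre and 0 called genes in both crush comparisons. It goes against the Chat levels of animals 3 and 4. Without both contradictory libraries 3299 genes and 3 transmitter genes were called in uncrushed mice, 4 transmitter genes over all libraries, and 5 and 0 genes for crush with and without Cre. Age as a covariate gave 2758 genes for Cre in crushed mice, 3 for crush with Cre and 2 without. Scaling by library size called 6216 genes and 2 transmitter genes in uncrushed mice and 1204 genes for crush without Cre. For crush with and without Cre, DESeq2 called 159 and 106 genes, no filter 281 and 338, and the compared groups alone 126 and 2. DESeq2 size factors called 1 gene for crush without Cre. For the difference of the crush effects, DESeq2 called 15 genes and no filter 87. Leaving out 1 library gave 3802 to 6512 genes and 2 to 5 transmitter genes in uncrushed mice, and 2733 to 7392 genes in crushed mice. It gave 7 to 15 genes for crush with Cre and 0 to 7 without.

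Signs of the changes given in the text turned in these cases, none of them past the threshold in the alternative. Crush changes of Slc17a7 and Slc17a8 are left out for their few counts. By the genotype entry, Cre against no-Cre in uncrushed mice was 0.0 for Slc6a5, 0.17 for Slc17a6 and 2.87 for Slc17a8, and over all libraries 0.44 for Slc17a8. The crush change with Cre was then -0.28 for Gad1 and -1.15 for Slc6a5, and without Cre 0.16 for Slc32a1, 0.31 for Slc6a5 and 0.51 for Slc17a6. The difference of effects was -0.08 for Slc32a1, -0.2 for Gad1 and -1.46 for Slc6a5. By library size, crush without Cre gave 0.89 for Slc32a1, 0.64 for Gad1, 0.53 for Slc6a5 and 0.85 for Slc17a6, crush with Cre 0.02 for Slc17a6, and the difference -0.07 for Slc32a1 and -0.19 for Gad1. Crush without Cre was 0.01 for Slc32a1 with no filter, and 0.02 both with the compared groups alone and with age as a covariate. Without both contradictory libraries it was -0.1 for Gad2, and the log2 ratio of Slc32a1 to Slc17a6 differed by -0.03. Leaving out 1 library gave, for crush with Cre, -0.29 to 0.26 for Gad1 and -0.07 to 0.57 for Slc6a5. For crush without Cre it gave -0.12 to 0.55 for Gad2, -0.31 to 0.12 for Slc17a6 and -0.55 to 0.87 for Slc32a1. It gave -0.49 to 0.92 (Slc32a1) and -0.7 to 0.07 (Slc17a6) for the difference, and -0.01 to 0.54 for the Slc32a1 to Slc17a6 ratio. The cause of these moves was not tested. The depth limits Slc17a7 and Slc17a8, with at most 36 counts in a library. With 2 animals in a group, small crush changes cannot be told apart from the spread.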
